A study of Mus musculus with 3 samples.

Results

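The cells described here are the mouse embryonic stem (ES) cells with the highest expression of genes that switch on at the boundary of G1 and S phase. They were chosen by their own expression values. Wells with more than 2600 detected genes were kept, without a pair of plates of replicate 3 whose condition could not be settled. Within each replicate and condition, the 25% of cells with the highest summed expression of 8 G2/M markers (Ccnb1, Plk1, Cdc20, Aurka, Cenpe, Cenpf, Ube2c and Tpx2) were set aside. Of the rest, the top 33% by the summed expression of 8 G1/S markers (Ccne1, Ccne2, Mcm3, Mcm5, Mcm6, Pcna, Cdc6 and Slbp) were called G1/S-high cells. These were 290 of 1167 kept cells, out of 1536 wells in all. The 877 remaining cells consisted of 292 cells set aside as G2/M-high and 585 other cells.

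All cells were JM8.N4 mouse ES cells of the C57BL/6N strain, grown without feeders in serum with leukemia inhibitory factor and the 2i inhibitors PD0325901 and CHIR99021. CRISPR/Cas9 editing had fused RAD21, a subunit of the cohesin ring, to an auxin-inducible degron, a tag that leads to breakdown of the protein once the plant hormone auxin is added. The control cells carried the same degron and were not treated, and the other cells received 500 μM auxin for 6 h, so that the effects of the tag and of auxin by itself were not analysed here. The data were 3 sorts into 96-well plates (replicates 1, 2 and 3), each with a control and an auxin culture, profiled by Smart-SCRB, which counts distinct transcript molecules by their unique molecular identifiers (UMIs). In replicate 1 the plates carry the labels RAD21_positive and RAD21_negative, which were read as control and auxin. No well name was shared between the tables.

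Cells pass from G1 into S phase when cyclin E and its kinase partner release E2F transcription factors from RB proteins. E2F then switches on genes that load and fire replication origins, supply nucleotides and copy DNA. ES cells have a short G1 phase and keep cyclin E activity high through much of the cycle, so that cycle genes vary less sharply in them than in most somatic cells.

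The G1/S-high cells numbered 42 control and 42 auxin cells in replicate 1, 92 and 72 for replicate 2, with 21 of each for replicate 3. Their summed counts per culture were between 1379321 and 14723349 UMIs. The median UMI count of a G1/S-high cell was lowest in the auxin culture of replicate 3 (56795) and highest in the auxin culture of replicate 2 (205598). Replicate 2 stood apart before any comparison was made. Nanog, a pluripotency factor, was at 67.3 and 39.1 CPM (the UMIs of a gene in the summed cells, scaled so that all genes of a culture add up to the same total) in the control and auxin G1/S-high cells of replicate 2, against 473 to 547 CPM in the other 4 cultures. Further ES cell factors separated replicate 1 from the others. Pou5f1 was at 253 and 216 CPM in replicate 1 and between 8.21 and 16.01 CPM in replicates 2 and 3, and Sox2 was at 154 and 106 CPM in replicate 1 and listed at 0 in both other replicates. The same split was seen in the remaining cells, with Sox2 at 155 and 94.7 CPM in replicate 1 and 0 elsewhere. The annotation used for counting is not given in the sources used here, and whether it differed between replicates was not tested, so such values are given as listed. The ES cell label therefore rested on Nanog, Zfp42 and Esrrb in replicate 3, and mostly on Zfp42 and the lower Nanog in replicate 2. In the control and auxin G1/S-high cells of replicate 2, Zfp42 was at 92.7 and 70.7 CPM and Esrrb at 20.6 and 5.37 CPM.

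The 8 G1/S markers separated the G1/S-high cells by construction, and their values are a description without a test. The median summed marker level of G1/S-high cells was lowest in the control culture of replicate 2 (1816 CPM) and highest in the control culture of replicate 3 (2293 CPM). In the other cells it was between 1059 and 1414 CPM. The sums did not fall into separate clusters at the threshold. In replicate 1 the lowest G1/S-high cell had 1896 CPM and the highest of the other cells 1877 CPM in the control culture, and 1636 against 1614 CPM with auxin. In replicate 2 these values were 1565 against 1554 CPM in the control culture and 1777 against 1772 CPM with auxin. In replicate 3 they were 2029 against 1990 CPM and 1819 against 1797 CPM. Of the 290 G1/S-high cells, 81 (27.9%) lay within 10% of the threshold of their culture, as did 103 of the other cells, so that the class is a range of a continuous measure. In addition, 42 of the 292 G2/M-high cells had a G1/S sum above the lowest G1/S-high cell of their culture.

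The sum was led by the helicase genes. Mcm5 and Mcm6, subunits of the MCM2-7 helicase that is loaded on origins, made up 25.1% and 24.1% of the marker sum and were the largest marker in 122 and 110 cells. Mcm3, another subunit, made up 16.04%, and Ccne1, which encodes a cyclin E, 12.8%. Slbp, which binds the stem-loop of histone messages, contributed 9.25%, Cdc6, which loads the helicase, 6.04%, and Pcna, the sliding clamp of DNA polymerases, 5.13%. Ccne2, the other cyclin E gene, contributed 1.55% and was the largest marker in 0 cells. A summed CPM thus weights the abundant helicase genes most.

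Ccne2 and Cdc6, which added little to the sum, had the largest ratios between classes. Ccne2 was at 58.4 and 49.0 CPM in the control and auxin G1/S-high cells of replicate 1, 12.4 and 26.3 CPM in those of replicate 2, and 34.8 and 33.4 CPM in those of replicate 3. The remaining cells had 9.71, 6.66, 8.91, 11.8, 4.75 and 6.03 CPM in the same order. The median log2 ratio over the 6 cultures was 2.38, with the lowest value in the control culture of replicate 2 (0.43). Replicate 2 thus had both the lowest Ccne2 levels in G1/S-high cells and the smallest ratios. Cdc6 was at 125, 115, 104, 126, 227 and 128 CPM in G1/S-high cells and at 25.2, 35.7, 59.0, 65.3, 51.6 and 60.5 CPM in the remaining cells, a median log2 ratio of 1.37. The ratio of Cdc6 was highest in replicate 1 control (2.27) and lowest in replicate 2 control (0.81).

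The helicase genes differed less, and by more even amounts. Mcm5 was between 453 and 643 CPM in G1/S-high cells and between 312 and 408 CPM in the remaining cells. Its median log2 ratio was 0.68 ± 0.068 (SD, n = 6 cultures). Mcm6 was between 440 and 609 CPM against 258 to 331 CPM, with a median log2 ratio of 0.86. Neither gene's ranges overlapped between the classes, but both genes are part of the sum that chose the cells, so nothing is read from this. Mcm3 had a median log2 ratio of 0.56 and Pcna one of 0.52. Ccne1 (1.06) and Slbp (1.07) lay between these genes and Ccne2. The ratio of Ccne1 was 0.29 in replicate 3 auxin, where G1/S-high cells had 184 CPM and the remaining cells 151 CPM, and 1.61 in replicate 1 control. The plot of markers by culture shows these values beside those of the 2 kinds of remaining cells.

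**Figure D1:**
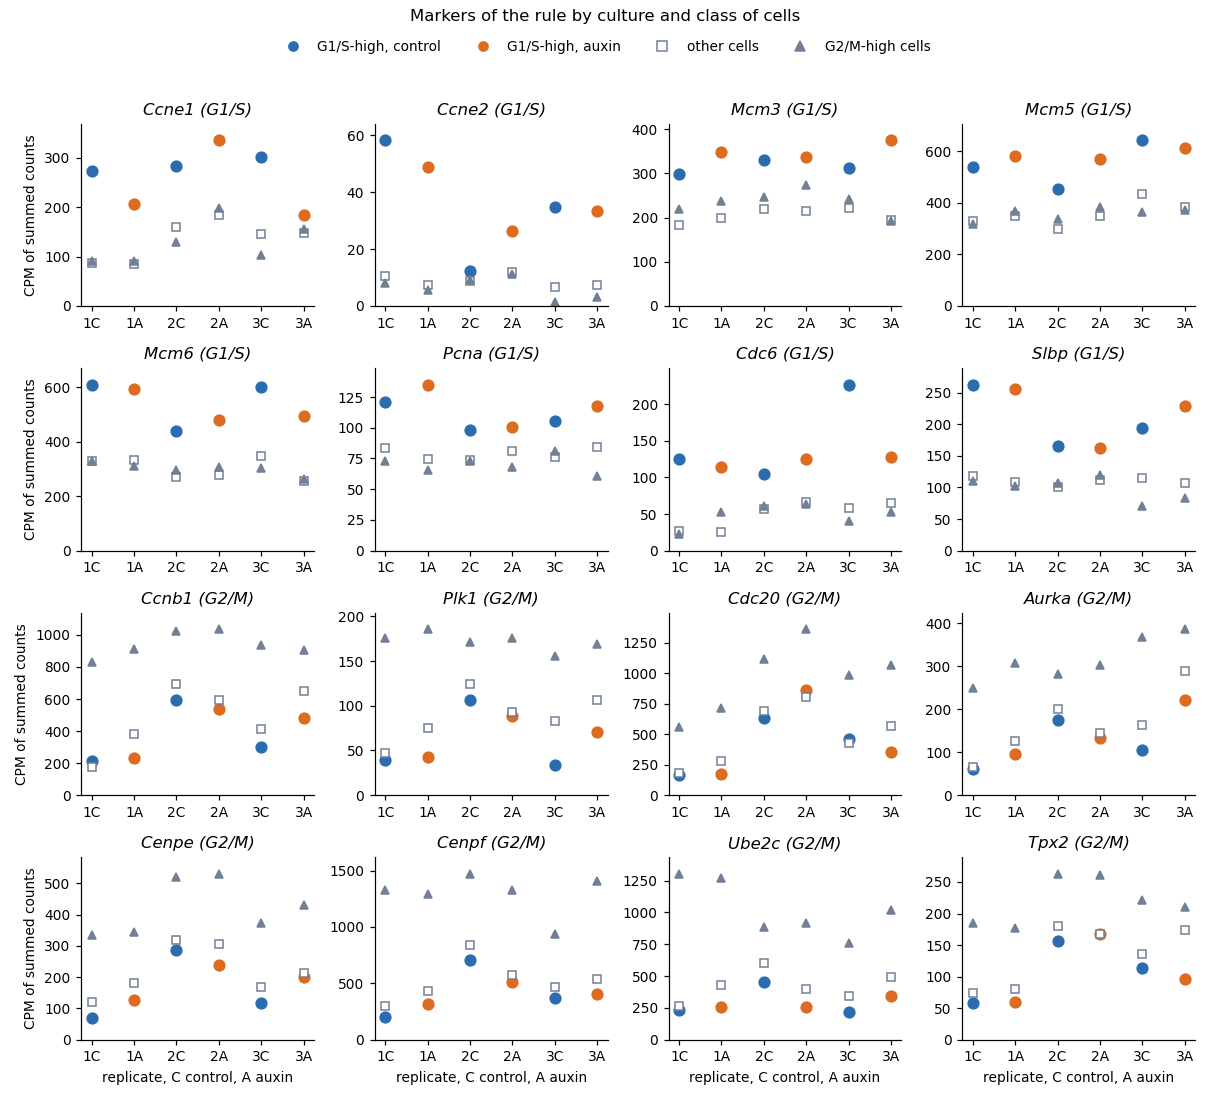
CPM of the summed counts (vertical axis, linear, from 0) for the 8 G1/S and 8 G2/M markers in 6 cultures (replicates 1 to 3, C control, A auxin). Large circles stand for G1/S-high cells, squares for the other cells and triangles for G2/M-high cells, and there are no error bars since each point is 1 summed culture. Ccne2 in replicate 2 control is at 12.4 CPM, close to the other classes, while in replicate 1 control it is at 58.4 CPM.

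A gene that enters the sum must be higher in the cells that the sum selects. Each marker was therefore also measured in cells chosen by the other 7 markers, and in cells chosen on a random part of their UMIs and measured on the other part. These settings were added after the data had been seen. With the marker left out, the median log2 ratio was 2.02 for Ccne2, 1.12 for Cdc6, 0.69 for Ccne1, 0.65 for Slbp, 0.65 for Mcm6, 0.50 for Mcm5, 0.45 for Pcna and 0.40 for Mcm3. Each of the 8 was higher in 6 of 6 cultures. The lowest culture value was 0.09 for Ccne1. On the other part of the UMIs the ratios were between 0.56 (Mcm3) and 2.29 (Ccne2), again higher in 6 of 6 cultures. Both settings chose mostly the same cells as the rule, 252 to 286 of the 290 with a marker left out and 265 on a part of the UMIs, so these ratios are a description and support nothing.

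Promoters of the marker genes are shown because E2F sites and CCAAT boxes are the sequence elements usually named for G1/S and G2/M genes. The sequences are from RefSeq (GRCm38.p6), from 250 bases before to 50 bases after the annotated start of transcription, 5′ to 3′ on the strand of the gene. The letters searched were TTTGGCGC, TTTCGCGC, TTTCCCGC and TTTGCCGC on both strands, where neighbouring matches can overlap, and CCAAT on both strands. Capitals mark the E2F letters. The stretches are chr1:20820263-20820562 (minus strand) for Mcm3, chr8:75109259-75109558 (plus strand) for Mcm5, chr1:128359656-128359955 (minus strand) for Mcm6 and chr11:98907901-98908200 (plus strand) for Cdc6.
Mcm3: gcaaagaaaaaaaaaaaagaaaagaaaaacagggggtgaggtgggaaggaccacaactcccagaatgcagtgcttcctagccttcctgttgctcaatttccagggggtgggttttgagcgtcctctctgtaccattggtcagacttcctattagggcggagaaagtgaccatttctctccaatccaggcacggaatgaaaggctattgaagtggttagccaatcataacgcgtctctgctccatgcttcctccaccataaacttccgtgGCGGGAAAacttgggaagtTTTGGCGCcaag
Mcm5: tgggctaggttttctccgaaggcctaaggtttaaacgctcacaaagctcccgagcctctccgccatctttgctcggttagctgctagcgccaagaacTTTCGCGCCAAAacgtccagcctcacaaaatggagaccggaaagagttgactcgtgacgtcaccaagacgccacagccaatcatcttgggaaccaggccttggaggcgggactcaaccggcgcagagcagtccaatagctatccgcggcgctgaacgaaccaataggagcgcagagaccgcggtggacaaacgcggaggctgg
Mcm6: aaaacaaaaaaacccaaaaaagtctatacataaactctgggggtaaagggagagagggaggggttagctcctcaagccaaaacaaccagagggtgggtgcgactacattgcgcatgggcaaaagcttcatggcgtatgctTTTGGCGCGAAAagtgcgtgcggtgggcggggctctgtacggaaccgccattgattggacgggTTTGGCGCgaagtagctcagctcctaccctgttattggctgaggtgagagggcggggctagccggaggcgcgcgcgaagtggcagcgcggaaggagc
Cdc6: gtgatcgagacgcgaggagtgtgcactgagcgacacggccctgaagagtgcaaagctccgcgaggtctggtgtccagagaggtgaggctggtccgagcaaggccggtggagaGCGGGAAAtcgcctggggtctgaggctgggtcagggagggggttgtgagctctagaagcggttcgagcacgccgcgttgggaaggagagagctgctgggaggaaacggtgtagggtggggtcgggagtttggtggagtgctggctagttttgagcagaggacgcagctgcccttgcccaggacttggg

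Among 32851 promoters of 27025 genes, 2.26% held an E2F match and 37.4% held CCAAT. Of the 8 G1/S markers, 7 were in the table and 4 held an E2F match, namely the genes printed above. Mcm6 had 3 matches, of which 2 overlapped, Mcm3 had 2, Mcm5 had 2 overlapping matches and Cdc6 had 1. CCAAT was held by 5 of the 7 G1/S markers in the table. Of 7 G2/M markers in the table, 0 held an E2F match and 7 held CCAAT. Of the markers without a match, Ccne1 lies at chr7:38097984-38107534, Ccne2, which was not in the table, at chr4:11191351-11204779, Pcna at chr2:132249162-132253314 and Slbp at chr5:33634952-33652574 (mm10, whole genes). A match describes letters in a window and is not a measured binding site, and a window without a match says nothing about the factor.

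Beyond the markers, the genes of DNA replication lay on the high side in G1/S-high cells. Of a list of 157 S-phase genes without the markers, 104 passed a mean of 5 CPM and 53 did not, 52 of which were replication-dependent histone genes. Of the 104, 33 were higher in 6 of 6 cultures and 0 were lower, and the median log2 ratio over the 104 genes was 0.21. Over all 10741 genes above the same mean, 3.18% were higher and 4.48% lower in 6 of 6 cultures, and the median log2 ratio was -0.02. The rule used these same cells, so nothing is read from the difference of these shares. Since the counts were summed over cells, less RNA of a gene per cell and fewer cells that express it cannot be told apart in these sums.

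Of 25 genes for licensing and firing origins, 10 were higher in 6 of 6 cultures, with a median of 0.32 over the 25. Cdt1, which loads the helicase with Cdc6 and is also named after its values were seen, was at 221 and 218 CPM in the G1/S-high cells of replicate 1 (139 and 138 CPM in the remaining cells) and listed at 0 in both classes of replicates 2 and 3, so it could not be higher in 6 of 6 cultures. Gins2 and Gins3, subunits of the GINS complex that activates the helicase, had median log2 ratios of 0.61 and 0.62. Gins2 was between 113 and 173 CPM in G1/S-high cells and between 82.3 and 109 CPM in the remaining cells. Of the helicase subunits outside the rule, Mcm2 had 0.32, Mcm7 0.31 and Mcm4, named after its value was seen, 0.56, beside 0.40 for Mcm3 when it was left out of the sum. Orc6, an origin recognition subunit, was at 322 to 436 CPM against 287 to 326 CPM, a median of 0.40. Mcm10 had a median of 0.59, but its lowest culture value was 0.0005, which shows how little a count of cultures by sign can rest on.

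Of 33 measured genes for polymerases and fork factors, 10 were higher in 6 of 6 cultures, with a median of 0.14. Rpa2, a subunit of the protein that coats single-stranded DNA, was at 238 to 285 CPM in G1/S-high cells against 129 to 205 CPM and had the largest median ratio of the list (0.75). Pold3, a subunit of DNA polymerase delta, had 0.52. Fen1, the nuclease that trims Okazaki fragments, had 0.47, and Tipin, a fork protection factor, 0.38. Lig1, the ligase that seals these fragments, was also higher in 6 of 6 cultures, but by little (median 0.12, lowest culture value 0.037). Dscc1, a clamp loader subunit, had a median of 0.66 and was higher in 5 of 6 cultures.

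Of 16 genes for nucleotide supply, 5 were higher in 6 of 6 cultures. Rrm2, the small subunit of ribonucleotide reductase, was at 732 to 966 CPM in G1/S-high cells and 427 to 720 CPM in the remaining cells, a median log2 ratio of 0.50. Dut, which removes dUTP, had 0.26. Tk1, thymidine kinase, had a median of 0.46 and was higher in 5 of 6 cultures. In the list for copying chromatin, 6 of 17 genes were higher in 6 of 6 cultures. Chaf1b, a subunit of the chaperone that deposits histones behind the fork, had 0.65, and Uhrf1, which recruits the maintenance DNA methyltransferase, had 0.64. Hmgb2, the most abundant gene of the list, had -0.01.

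Replication-dependent histone messages lack a poly(A) tail in most cases and are poorly captured by poly(A) priming, and 13 of 65 passed the mean of 5 CPM. Of the 13, 2 (Hist1h1b and Hist1h2ap) were higher in 6 of 6 cultures. Hist1h2ap was at 802 and 666 CPM in the G1/S-high cells of replicate 1 and at 396 and 317 CPM in its remaining cells. In replicates 2 and 3 it was between 2.65 and 9.43 CPM in G1/S-high cells and between 0.754 and 2.29 CPM in the remaining cells, so that only replicate 1 measured it well. Histone genes of this cluster are near copies of each other, and how the authors' counting split their reads is not given in the sources used here.

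**Figure D2:**
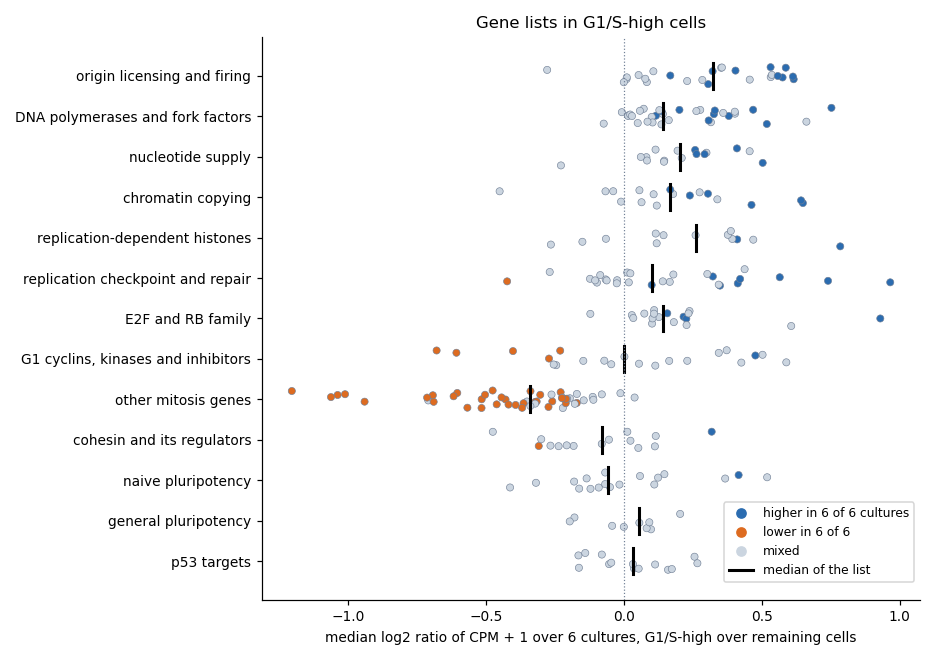
Median log2 ratio over 6 cultures of CPM + 1 in G1/S-high over remaining cells (horizontal axis) for the measured genes of 13 lists, 1 point a gene, with markers of the rule left out. Blue points were higher in 6 of 6 cultures, orange points lower in 6 of 6, grey points mixed, and black bars are the median of each list: 0.32 for origin genes and -0.34 for mitosis genes.

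Regulators of the G1/S step were mixed. Over all measured genes, 3.18% were higher and 4.48% lower in 6 of 6 cultures. Of 18 measured E2F and RB family genes, 4 (22.2%) were higher in 6 of 6 cultures and 0 lower. E2f8, a repressor of the E2F family that is itself an E2F target, was at 16.3 to 36.9 CPM in G1/S-high cells and 6.80 to 17.6 CPM in the remaining cells, a median log2 ratio of 0.93. E2f7, its close relative, had 0.61 and was higher in 5 of 6 cultures. Rbbp4, an RB-binding histone chaperone, had 0.22. Of 21 G1 cyclins, kinases and inhibitors, 1 (Cdk2) was higher and 5 were lower in 6 of 6 cultures (4.76% and 23.8%). The share of higher genes was near that over all genes, so nothing is read from it. Cdk1, the kinase of mitosis, had a median of -0.68 and Cdkn2b, a CDK inhibitor at 10.53 CPM or less in G1/S-high cells, -0.61. Cdk4 was near equal (0.0022). Ccnd3, a D-type cyclin, had a median of 0.37 and was higher in 5 of 6 cultures, as was Cdc25a, the phosphatase that activates CDK2 (0.59).

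Of 27 measured genes of the replication checkpoint and repair, 8 were higher and 1 was lower in 6 of 6 cultures. These were 29.6% and 3.70%, beside 3.18% higher and 4.48% lower over all genes. Ung, the glycosylase that removes uracil from DNA, was at 167 and 158 CPM in the control and auxin G1/S-high cells of replicate 1, 170 and 178 CPM in those of replicate 2, and 334 and 191 CPM in those of replicate 3. The values in the remaining cells were 84.3, 69.2, 87.2, 97.8, 150 and 131 CPM. Ung was higher in 6 of 6 cultures, with a median log2 ratio of 0.97. Exo1, an exonuclease of mismatch repair, had 0.74 and Dtl, a receptor for PCNA-dependent degradation, 0.57.

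Genes of mitosis lay on the low side, less so once the cells that the rule had set aside were left out of the comparison. The 8 G2/M markers had median log2 ratios between -1.18 (Ube2c) and -0.70 (Cdc20), all lower in 6 of 6 cultures. Without the G2/M-high cells, which these markers had set aside, the medians were between -0.56 (Ube2c) and -0.12 (Cdc20). Of 50 further mitosis genes, 33 were lower and 0 higher in 6 of 6 cultures, with a median of -0.34, beside the 4.48% of all genes that were lower. Top2a, topoisomerase II, and Arl6ip1 each had -0.69, and Nusap1, a spindle protein, had -1.20. Against the other cells alone, without the G2/M-high cells, 9 of the 50 were lower in 6 of 6 cultures and the median was -0.10, where 3.55% of all genes were lower and 2.68% higher. In that comparison the S-phase list had 31 genes higher in 6 of 6 cultures and a median of 0.21. G1/S-high cells of replicate 2 kept more mitotic message than those of the other replicates, with a median G2/M marker sum of 3196 CPM in the control and 2425 CPM in the auxin culture, against 942 and 1142 CPM in replicate 1 and 1628 and 1634 CPM in replicate 3.

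The genes with the largest ratios outside the rule came from repair and replication and from other pathways. Among genes with a mean of 10 CPM or more and the same sign in 6 of 6 cultures, the 10 highest were CT030173.1 (1.27), Ung (0.97), E2f8 (0.93), Tcf19 (0.87), Hist1h2ap (0.78), Rpa2 (0.75), Kcnk1 (0.74), Exo1 (0.74), Sdc1 (0.72) and Ndor1 (0.70). Tcf19, which encodes a nuclear protein that peaks at G1/S, was between 9.78 and 38.3 CPM in G1/S-high cells and between 5.67 and 19.7 CPM in the remaining cells. Kcnk1 encodes a potassium channel and Sdc1 the proteoglycan syndecan-1. Ndor1 is listed under overlapping gene models and is uncertain. CT030173.1 varied from 0.08 to 3.00 between cultures and was lowest in both replicate 2 cultures, the widest range of the 10.

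The 10 lowest were C330021F23Rik (-1.70), Ahi1 (-1.21), Nusap1 (-1.20), Anxa2 (-1.11), Prc1 (-1.06), Lockd (-1.05), Mapk4 (-1.05), Ckap2l (-1.04), Hmmr (-1.01) and Reep4 (-1.001). Nusap1, Prc1, Ckap2l and Hmmr encode spindle and midzone proteins and belong to the mitosis list. Reep4 helps clear membrane from chromosomes in mitosis. Anxa2, which encodes the membrane-binding protein annexin A2, was not on any list. It was at 20.1 and 23.8 CPM in the G1/S-high cells of replicate 1, 26.6 and 16.2 CPM in those of replicate 2 and 11.1 and 21.8 CPM in those of replicate 3. Against this, the remaining cells had 49.7, 49.5, 26.7, 38.3, 38.7 and 41.3 CPM. The ratio was absent in replicate 2 control (-0.0043), and without the G2/M-high cells its median was -1.24, no smaller than before. Most of the other genes moved nearer to 0 in that comparison. Their medians were -0.60 for Nusap1, -0.59 for Prc1, -0.57 for Ckap2l, -0.66 for Hmmr, -0.65 for Lockd and -0.50 for Reep4. They were -1.44 for C330021F23Rik, -0.87 for Ahi1 and -1.04 for Mapk4.

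**Figure D3:**
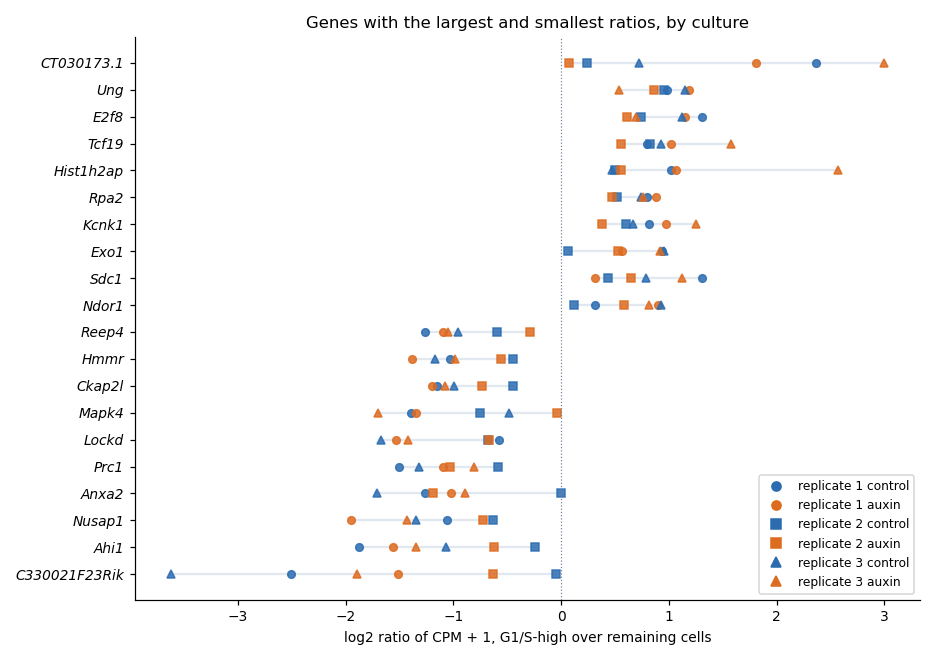
Log2 ratio of CPM + 1 in G1/S-high over remaining cells (horizontal axis) for the 10 genes with the highest and the 10 with the lowest median ratio outside the markers of the rule, with 1 point for each of 6 cultures. Circles, squares and triangles are replicates 1, 2 and 3, blue is control and orange auxin, and grey lines join the lowest and the highest culture. Replicate 2 (squares) lies nearest to 0 for C330021F23Rik, Hmmr and Ckap2l, and Hist1h2ap is at 2.57 in replicate 3 auxin.

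Lists outside the cell cycle showed few genes with the same sign in 6 of 6 cultures, and single genes of short lists are near the 3.18% higher and 4.48% lower over all genes, so nothing is read from them. Of 15 cohesin genes, Cdca5, which encodes the cohesion-protecting factor sororin, was higher (0.32) and Smc1a, a core subunit, lower (-0.31). Rad21 itself had a median of -0.30, was higher in 1 of 6 cultures and ranged from -2.21 to 0.24. Of 18 naive pluripotency genes, 1 (Prdm14, 0.42) was higher and 0 lower, and of 9 general pluripotency genes 0 were higher or lower. Nanog was near equal (-0.02), as was Zfp42 (-0.07). Of 9 measured formative genes only Otx2 was lower (-0.43), and of 14 p53 targets 0 were higher or lower. Of 13 measured stress genes 2 were higher, among them Hspa5, a chaperone of the endoplasmic reticulum (0.18). Of 6 immediate early genes Dusp6, a phosphatase that acts on ERK, was lower (-0.30), and of 8 Myc family genes Myc was higher (0.21).

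Markers of other cells were low in both classes. Of the lists of 14 endoderm, 12 fibroblast, 20 2-cell-like and 12 trophoblast genes, 5, 1, 1 and 6 reached a mean of 5 CPM, and 0 were higher or lower in 6 of 6 cultures. The summed level of 6 defining endoderm markers was between 3.89 and 26.1 CPM in G1/S-high cells and between 7.02 and 17.5 CPM in the remaining cells. That of 5 fibroblast markers reached 9.05 CPM and 8.64 CPM, and that of 4 trophoblast markers 16.4 CPM and 20.7 CPM. None of these markers was at 0 in G1/S-high cells of all cultures. The summed level of 5 markers of 2-cell-like cells, a rare state that transcribes genes of the early embryo, reached 60.0 CPM in G1/S-high cells and 6.41 CPM in the remaining cells. It rested on a pair of cells. Of 262 UMIs of these markers in replicate 1 auxin, 241 came from 1 cell and 21 from another, and the other 5 cultures of G1/S-high cells had 4 UMIs or fewer.

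No difference in RNA content between G1/S-high and remaining cells was shared by the replicates. The ratio of median UMI counts was 0.983 and 0.855 in the control and auxin cultures of replicate 1, 1.15 and 1.20 for replicate 2, then 0.951 and 0.686 for replicate 3, with a mean of 0.971 ± 0.189 (SD, n = 6 cultures). Both replicate 2 cultures were above 1 and the other 4 below it. Without replicate 2 the mean was 0.869. The percent of counts from ERCC transcripts, spike-in RNA added in equal amounts to each well, differed by 0.128 ± 0.442 percentage points (SD, n = 6 cultures), and was -0.0225 without replicate 3. The distance of the mean ratio from 1, and the mean ERCC difference, were smaller than the spread between cultures. The G2/M-high cells held more UMIs than G1/S-high cells in 4 of 6 cultures, with a mean ratio of 1.14 ± 0.200 (SD), and fewer in both cultures of replicate 2 (0.918 and 0.914). At an equal depth of 20000 UMIs, the number of detected genes in G1/S-high cells was 0.964 to 1.03 times that in the remaining cells. The percent of counts from mitochondrially encoded genes was lower in G1/S-high cells in 6 of 6 cultures, by 0.608 points in replicate 1 control and by 0.0001 to 0.138 points in the other 5. When the marker sums were taken at 20000 UMIs, 228 of 280 cells were the same.

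Phase calls by cyclone, which compares pairs of genes trained on sorted mouse ES cells, placed most G1/S-high cells in S phase. The calls share genes with the rule and are a description. In replicate 1, 52.4% of 42 control cells and 76.2% of 42 auxin cells were called S. In replicate 2 the shares were 56.5% of 92 and 62.5% of 72 cells, and in replicate 3 they were 71.4% and 76.2% of 21 cells each. The S share of the remaining cells was between 16.7% and 34.4%. In the other cells alone, without the G2/M-high cells, it was between 23.8% and 51.2%. The G1/S-high cells were thus S-phase cells more than G1 cells by this caller, and the label of the class names its marker genes and not a phase. A call of G1 was most frequent in replicate 1 control (42.9%), and a call of G2/M in replicate 2 control (35.9%), where the G2/M marker sum was also highest. At 20000 UMIs a cell, which left out 3 of the 290 cells, the S shares were 52.4% and 54.8%, 46.7% and 56.5%, and 76.2% and 71.4% in the same order.

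The S share of G1/S-high cells was higher with auxin in 3 of 3 replicates, by 23.8, 5.98 and 4.76 percentage points, with a mean of 11.5 ± 10.7 (SD, n = 3). The rule chose these cells within each condition by genes that the calls also use, so the difference has no test. At 20000 UMIs the differences were 2.38, 9.78 and -4.76 points (mean 2.47), so that thinning changed the size in replicate 1 and the sign in replicate 3. The mean difference in the remaining cells was -3.01 points.

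**Figure D4:**
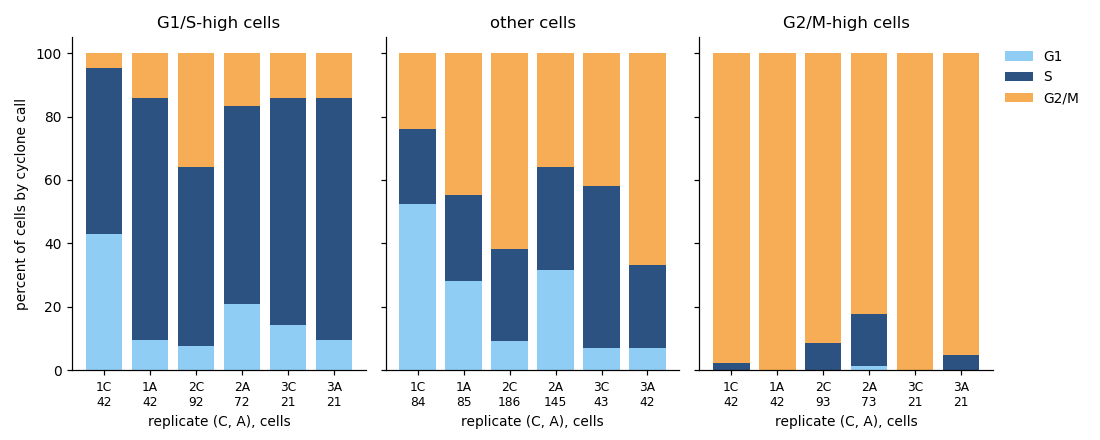
Percent of cells (vertical axis) called G1, S or G2/M by cyclone at full depth in G1/S-high, other and G2/M-high cells of 6 cultures (replicates 1 to 3, C control, A auxin, with the number of cells under each bar). S calls make up 52.4% to 76.2% of G1/S-high cells, and G2/M calls make up 82.2% to 100% of G2/M-high cells.

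Auxin was compared with control within the G1/S-high cells to see how auxin relates to expression among cells high in these cycle genes. The class had been set separately in each condition, and its threshold and its phase calls differed between control and auxin cells, as given above. Cells of 1 culture are not replicates, so counts were summed per culture and 3 control sums were tested against 3 auxin sums. Rad21, the gene whose protein carries the degron, was at 17.3 and 21.97 CPM in the control and auxin sums of replicate 1, 31.0 and 29.7 CPM in those of replicate 2, and 33.4 and 10.9 CPM in those of replicate 3, where the auxin value rests on 15 UMIs. The groups overlapped (log2 fold change -0.34, SE 0.475, edgeR adjusted p = 1.00). Rad21 in the remaining cells was at 22.1 and 18.5, 31.2 and 35.8, and 45.2 and 54.1 CPM. The degron acts on the protein, so the message does not check the labels.

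With the filter on low counts and all 3 replicates, no gene passed an adjusted p under 0.05 in G1/S-high cells by edgeR. A few did by DESeq2 with the replicate as a block. Without the filter, edgeR with that block called 31 genes. By edgeR's quasi-likelihood test 0 of 12615 genes were called (0%), with 34 at an unadjusted p under 0.05. With the replicate as a block edgeR called 0 genes (482 at an unadjusted p under 0.05). DESeq2 called 0 without the block, with 58 at an unadjusted p under 0.05, and 11 with it (0.0872%). In simulated sums, the fit without the block recovered 0% of genes changed 4-fold and the blocked fit recovered 64% with 7 false calls. The 8 G1/S markers, which had chosen the cells in each condition, had log2 fold changes between -0.31 (Cdc6) and 0.15 (Mcm3), a description without a test.

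The genes that DESeq2 called with the replicate block comprised 1 that rose and 10 that fell. They are given here after their values were seen, and 3 of them, Dkk1, Klf4 and Klf5, were already known from earlier results of these data. Dkk1, a secreted Wnt inhibitor, was at 8.00 and 42.1 CPM in control and auxin cells of replicate 1, 0 and 0.611 CPM in replicate 2 and 11.8 and 90.6 CPM in replicate 3. It rose by 2.81 on the log2 scale (DESeq2 with block, adjusted p = 0.000128). In replicate 2 the values rest on 0 UMIs in control and 9 in auxin cells. Klf4, a naive pluripotency factor, was at 100 and 52.9, 4.69 and 0.883, and 98.2 and 18.9 CPM. Klf4 fell by 1.85 (adjusted p = 0.000971, DESeq2 with block). Klf5, its relative, was at 265 and 170, 64.0 and 14.9, and 336 and 135 CPM, and fell by 1.38 (adjusted p = 0.000043, DESeq2 with block). edgeR's fit with the block gave similar log2 fold changes, 2.75 for Dkk1 (SE 0.442), -1.79 for Klf4 (SE 0.339) and -1.36 for Klf5 (SE 0.246), with adjusted p of 0.773, 0.837 and 0.773. Without a filter on low counts the same edgeR fit called all 3, with adjusted p of 7.54e-06, 8.721e-06 and 4.154e-11. These calls therefore depended on the tool and on the filter.

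The other 8 genes fell by 0.56 to 1.50 on the log2 scale in the same fit. Tdh, the threonine dehydrogenase on which mouse ES cells depend, was at 778 and 528, 250 and 159, and 782 and 336 CPM in control and auxin cells of replicates 1, 2 and 3. It fell by 0.84. Ccnd3 was at 596 and 377, 128 and 74.4, and 495 and 204 CPM, and fell by 0.93. Both were lower with auxin in 3 of 3 replicates. Mkrn1, a ubiquitin ligase, fell by 0.56 and G3bp2, a stress granule protein, by 0.60. Rpph1, the RNA of RNase P, fell by 0.91, and Htra1, a secreted protease, by 1.50. F2r, the thrombin receptor, fell by 1.38, from 290 to 72.7 CPM in replicate 2 and from 182 to 99.3 CPM in replicate 3. It was under 6 CPM in replicate 1. In the remaining cells F2r was at 1566 and 87.9 CPM in control and auxin cells of replicate 2, and at 213 and 114 CPM in those of replicate 3.

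Cdk8, a kinase of the Mediator complex, was at 1429 and 629 CPM in replicate 2, 1419 and 595 CPM in replicate 3, and 20.5 and 17.4 CPM in replicate 1. It fell by 1.02 in DESeq2's fit with the block. The level in replicate 1 differed from the other replicates in the remaining cells also (16.7 and 17.4 CPM against 769 to 2226 CPM). For Cdk8 and F2r, as for Sox2, whether all replicates were counted alike was not tested. With replicate 1 left out, Cdk8 was the only gene that edgeR called with the block (log2 fold change -1.23, adjusted p = 0.0336).

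**Figure D5:**
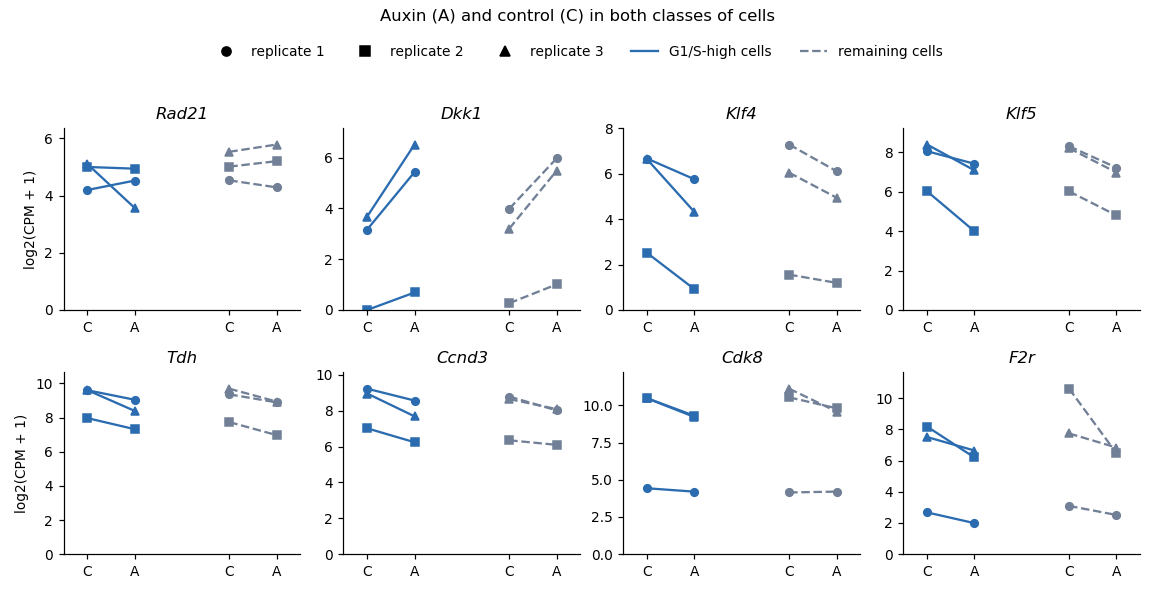
Log2 of CPM + 1 (vertical axis, from 0) in control (C) and auxin (A) sums of G1/S-high cells (blue, solid) and remaining cells (grey, dashed) for Rad21 and 7 genes that DESeq2 called with the replicate block. Lines join the cultures of 1 replicate, with circles, squares and triangles for replicates 1, 2 and 3, and Dkk1 rises in both classes of replicates 1 and 3 while Klf4, Klf5, Tdh and Ccnd3 are lower with auxin in both classes of all 3 replicates.

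These shifts were not shown to be particular to G1/S-high cells. In the remaining cells edgeR called 0 of 16599 genes without the block and 3 with it, among them Klf5 (log2 fold change -1.20, adjusted p = 0.0149) and Dkk1 (2.21, adjusted p = 0.0305). The difference of the auxin response between G1/S-high and remaining cells was tested in 12 sums with the culture as a block, and edgeR called 0 of 17552 genes (0%), with 405 at an unadjusted p under 0.05 and 0 calls by DESeq2 (413 at an unadjusted p under 0.05). The difference was 0.50 for Dkk1 (SE 0.639), -0.85 for Klf4 (SE 0.432) and -0.17 for Klf5 (SE 0.232), each with an adjusted p of 1.00. In the simulated sums this test recovered 17% of 100 genes changed 2-fold and 40% of 100 changed 4-fold, with 18 false calls.

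No list was tested for a shift with auxin in G1/S-high cells, and their counts are a description. Over all 12615 genes, 14.6% were higher and 10.9% lower with auxin in 3 of 3 replicates. Of 14 p53 targets 5 were higher and 0 lower in 3 of 3, with a median log2 fold change of 0.37 and 0 called. Of 8 general pluripotency genes 0 were higher and 3 lower, with a median of -0.33. Of 18 naive pluripotency genes 2 were higher and 5 lower. The formative and primed list had 0 higher and 0 lower of 8 with a median of -0.45, and the Myc family 0 higher and 2 lower of 10 with a median of -0.33. Among the replication lists, 5 were higher and 4 lower of 24 origin genes (median -0.03), 3 higher and 5 lower of 34 polymerase and fork genes (-0.07), 3 higher and 4 lower of 16 nucleotide supply genes (0.02), 4 higher and 2 lower of 17 chromatin copying genes (-0.06), and 0 higher and 2 lower of 20 histone genes (-0.26). No gene of any list was called in edgeR's fits with the filter on low counts, with or without the block, and without the filter the blocked fit called Klf4, Klf5 and Ccnd3.

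The coordination of genes across cells was compared by the mean rank correlation of raw counts over all gene pairs, without the grouping into chromatin domains that the study used. Over 9043 genes, the G1/S-high cells of replicate 1 had 0.0534 (control) and 0.0459 (auxin), those of replicate 2 0.106 and 0.186, and those of replicate 3 0.0378 and 0.0864. The values were higher with auxin in 2 of 3 replicates. The mean difference was 0.0404 ± 0.0444 (SD, n = 3), for which the exact permutation test gave p = 0.5. Cell-to-cell variation in UMI count moved the same way, with a coefficient of variation of 31.8% (control) and 26.4% (auxin) for replicate 1, 32.4% and 43.0% for replicate 2, and 23.1% and 41.5% for replicate 3. On CPM per cell the mean difference was 0.00914 and with the UMI count partialled out 0.0075, each with an exact permutation p of 0.5. The raw correlation of the remaining cells was 0.0857 and 0.0914, 0.201 and 0.214, and 0.0703 and 0.156, higher than in G1/S-high cells in 6 of 6 cultures. The spread of UMI counts was also larger there (32.5% to 53.7%), and its part in this difference was not tested. On CPM per cell the control and auxin means were 0.026 and 0.0348 in the remaining cells, against 0.00904 and 0.0182 in G1/S-high cells. With the UMI count partialled out they were 0.0114 and 0.0136 against 0.00871 and 0.0162.

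Pairs on the same chromosome were correlated slightly more than pairs on different chromosomes. The excess was between 0.0031 and 0.0076 in G1/S-high cells and was higher with auxin in 3 of 3 replicates, by a mean of 0.00141 ± 0.0015 (SD, exact permutation p = 0.25, the smallest possible). By replicate the differences were 0.000515, 0.00314 and 0.000564, so that replicate 2 carried most of the mean. The excess of the remaining cells was higher with auxin by 0.00257 (exact permutation p = 0.25), likewise in 3 of 3 replicates. On CPM per cell the excess in G1/S-high cells was higher by 0.00239, also in 3 of 3 (0.00126, 0.00528 and 0.000634).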

How the data were processed

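Raw UMI counts per gene and well were deposited by the authors for 3 Smart-SCRB replicates, with mm10 as the build in the submitters' processing notes. The aligner, counter and annotation are not given in the sources used here. The counts were neither normalized nor filtered on cells. Per well, the authors also deposited a gene count, a total and an ERCC percent. Recomputed totals equalled the deposited ones in 1536 of 1536 wells. Of 16 plates, 2 of replicate 3 (168 wells over 2600 genes) were left out because their deposited condition and the source data of the study disagree. ERCC (92) and transgene (11) rows stayed out of the totals over 52636 genes. Doublets were not called, since wells were sorted singly.

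The members and gene lists were chosen with earlier results of these data known. Counts were summed per culture and class. Ratios between classes are log2 of CPM + 1 and carry no test, since the rule used these cells. Named genes were the markers, up to 4 genes a list by mean CPM or median ratio, and 10 genes in each direction with a mean of at least 10 CPM and the same sign in 6 of 6 cultures. Auxin was tested with edgeR 4.0.16 (quasi-likelihood, TMM, filterByExpr, Benjamini-Hochberg, threshold 0.05) in R 4.3.3 without a block and, as alternatives, with the replicate as a block and with DESeq2 1.42.0. The study states that the whole procedure was carried out anew for each replicate. Control and auxin cells of a replicate are called cultures here. The replicate numbers, taken from the labels, paired the samples, because the deviations of control and auxin sums from their group means correlated with 0.763, 0.727 and 0.492 in replicates 1, 2 and 3. Phases came from cyclone in scran 1.30.0. Thinning used 20000 UMIs (seed 1). The gene positions were those of GENCODE for mm10. Correlation differences over 3 replicates had an exact sign-flip permutation test (smallest p 0.25). The fits were tested on simulated data. Other steps used scipy 1.17.1, numpy 2.4.6 and pandas 2.3.3 under Python 3.11.15. A few genes of the lists are not reported here.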

Additional observations from a re-analysis of the deposited data

Results flagged for a closer look

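In 42 sets of 6 culture values checked for a value far from its neighbours, 2 were found, where chance flags about 1 set in 20. The difference of the median mitochondrial percent between G1/S-high and remaining cells was -0.608 points in replicate 1 control, and between -0.138 and -0.0001 points in the other 5 cultures. The log2 ratio of Hist1h2ap was 2.57 in replicate 3 auxin, at 9.43 CPM in G1/S-high cells and 0.754 CPM in the remaining cells, and between 0.47 and 1.07 in the other cultures.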

How the results depend on the processing

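There were only 3 replicates, and the auxin and control sums of replicate 3 were the shallowest. How far either limited precision was not tested. Replicate block fits of the auxin test in G1/S-high cells called 0 genes in edgeR, 11 in DESeq2, 31 in edgeR without a filter on low counts, and 1 in edgeR without replicate 1 (Cdk8) and without replicate 3 (Adra1b). The combinations of the block with other settings, and the settings of the markers, were chosen after seeing the data. In the remaining cells edgeR called 0 genes without the replicate block and 3 with it. Without the block the count was 0 in edgeR under each setting run, leaving out a replicate included (0 to 0), but that fit recovered 0% of simulated 4-fold changes, so these counts say nothing about stability. The test of the difference between classes called 0 genes, 6 without a filter on low counts, 2 without replicate 2 (Mir6236 and Krt18) and 2 without replicate 3 (Gm34623 and Adra1b), a range of 0 to 2 on leaving out a replicate. Adra1b and Gm34623 were at 946 and 1197 CPM in the remaining cells of replicate 2 control, against 158 and 169 CPM in its G1/S-high cells. The causes were not tested.

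The S-phase list had 33 genes higher in every culture, 28 to 41 under other selections of cells and 34 to 58 without 1 replicate. The count of 58 came without replicate 3, and fewer cultures had to share a sign (background 8.58%). The mitosis list had 33 genes lower, 24 to 33 under other selections, 35 to 38 without 1 replicate, and 9 when the G2/M-high cells were left out of the comparison. Without 1 replicate the UMI ratio was 0.869 to 1.05, the ERCC difference -0.0225 to 0.325 points, the auxin difference of the S share 5.37 to 14.9 points and that of the rank correlation 0.0205 to 0.0644.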

Other observations

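Of the transgene sequences in the tables, 55 UMIs were found in the 155 control and 22 in the 135 auxin G1/S-high cells, beside 20557435 and 20472113 gene UMIs. Selection settings moved the class by known amounts. Choosing by the mean of z-scores of the markers, which weights Ccne2 as much as Mcm5, shared 217 of 290 cells with the class. Keeping the G2/M-high cells in the ranking gave 387 cells, all 290 among them. Of the 75 measured S-phase genes with a promoter in the table, an E2F match was held by 7 of the 25 that were higher in 6 of 6 cultures (28.0%) and by 14 of the 50 that were not (28.0%). CCAAT was held by 17 of the 25 and by 24 of the 50. Among the 42 mitosis genes in the table, 1 (Kif18a) held a match.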
